A study of Mus musculus with 180 samples.

Results

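Regulator of G protein signalling (Rgs) genes were examined in single blood stem and progenitor cells, together with Myl10, which encodes a regulatory light chain of myosin, and Sult1a1, which encodes a cytosolic sulfotransferase. The 8 members are Rgs1, Rgs2, Rgs10, Rgs14, Rgs18, Rgs19, Myl10 and Sult1a1. They were taken by name from a table of 14825 genes, and all 8 were found in it. They were chosen by name with differences in TPM between these populations already known, in which Myl10, Rgs1 and Sult1a1 stood at the far end, so every difference is a description.

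The study placed Hoxb5, a homeobox gene that is active in haematopoietic stem cells (HSC), into multipotent progenitors (MPP). RNA of 180 single cells was sequenced, and each cell is 1 library. The 47 CD11b+CD48+SK cells (SK stands for Sca1+c-kit+) were donor-derived cells sorted at Week 8 after transplantation. Their donors were MPP of Mx1cre/Rosa LSL-Hoxb5-EGFP/+ mice, in which Cre under the Mx1 promoter removes a stop cassette once pIpC is given, and the irradiated primary recipients received pIpC. The 41 WT-MPP cells came from bone marrow of 8-week-old Rosa LSL-Hoxb5-EGFP/+ mice, which carry the cassette without Cre. The study defines MPP by a gate that is CD48- and CD135+, but states it for the transplanted cells. The 36 BM HSC came from bone marrow of mice of the same age and genotype. The 56 FL HSC came from Day14.5 fetal liver of Rosa LSL-Hoxb5-EGFP/+ embryos and were sorted as CD150+CD11b+ cells within the CD45.2+Lin-Sca1+c-Kit+ gate. All mice were on the C57BL/6 background, and the cassette was shared by all 4 populations. Only the CD11b+CD48+SK cells had been transplanted and exposed to pIpC and ectopic Hoxb5, so these factors cannot be told apart from one another. No transplanted MPP without Cre were analysed here. The source label of the FL HSC reads bone marrow, and the population is named here by the cell type label.

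The labels name no animal, so each population is 1 sample without replicates and no test was made. Values are TPM (transcripts per 1000000), a level corrected for transcript length, and a gene is called present in a cell at a TPM of 1 or more. Reads per cell are unknown. The median number of genes present was 5206.5 in FL HSC, 4441.5 in BM HSC, 3844 in WT-MPP and 4514 in CD11b+CD48+SK cells. Low values were more common in the adult populations. A filter kept 10856 genes that reached 10% of cells present in any population. Of their values, 21.3% in WT-MPP and 20.9% in BM HSC lay above 0 and under 20 TPM. The shares were 16.3% in the CD11b+CD48+SK cells and 14.6% in FL HSC. For the 8 members these shares were 19.5% in WT-MPP, 21.9% in BM HSC, 9.57% in CD11b+CD48+SK cells and 4.69% in FL HSC. Shares of present cells are therefore given also at 20 TPM where it matters, a limit chosen after the values were seen. The part of this difference in the results was not tested. Ranges in percent beside a share are 95% exact Clopper-Pearson limits, for counting error of cells alone.

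G protein-coupled receptors act by loading GTP onto G alpha subunits. Rgs proteins speed up the hydrolysis of that GTP and so shorten the signal. In blood cells they tune the response to chemokines and other ligands of such receptors, and a chemokine axis of HSC, Cxcl12 and its receptor Cxcr4, signals through the Gi class. Myosin regulatory light chains bind the neck of the myosin heavy chain and take part in contraction and cell movement. Cytosolic sulfotransferases move sulfate from the donor PAPS onto phenols, hormones and drugs.

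Sequences upstream of the start were compared because some members were present in most cells of all populations (Rgs2, Rgs18, Rgs19), and others were missing from nearly all cells of at least 1 population (Rgs1, Rgs10, Myl10, Sult1a1). RefSeq promoters (GRCm38.p6) matched 5 of the 8 members, and Rgs1, Rgs14 and Rgs18 are only named. The 250 bases before the start are printed for 4 of them, 5′ to 3′ on the strand of the gene. The window of Myl10 lies at chr5:136692896-136693145 (plus strand) and that of Sult1a1 at chr7:126676419-126676668 (minus strand), while that of Rgs2 lies at chr1:144004150-144004399 and that of Rgs19 at chr2:181693978-181694227, both on the minus strand. Capitals mark motif matches.
Myl10 promoter: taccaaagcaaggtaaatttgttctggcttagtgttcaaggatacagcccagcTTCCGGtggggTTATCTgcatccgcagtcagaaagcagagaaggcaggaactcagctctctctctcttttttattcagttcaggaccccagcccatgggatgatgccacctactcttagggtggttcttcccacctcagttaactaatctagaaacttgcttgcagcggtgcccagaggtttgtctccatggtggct
Sult1a1 promoter: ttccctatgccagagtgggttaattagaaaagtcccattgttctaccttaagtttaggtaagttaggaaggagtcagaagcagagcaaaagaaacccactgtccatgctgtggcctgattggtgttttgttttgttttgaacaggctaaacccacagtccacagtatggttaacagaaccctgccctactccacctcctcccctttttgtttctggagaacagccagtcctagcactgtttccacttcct
Rgs2 promoter: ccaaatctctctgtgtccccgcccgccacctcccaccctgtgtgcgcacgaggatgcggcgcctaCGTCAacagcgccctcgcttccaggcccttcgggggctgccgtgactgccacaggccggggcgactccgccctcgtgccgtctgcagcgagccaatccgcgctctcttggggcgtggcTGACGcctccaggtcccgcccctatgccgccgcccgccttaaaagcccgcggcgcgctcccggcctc
Rgs19 promoter: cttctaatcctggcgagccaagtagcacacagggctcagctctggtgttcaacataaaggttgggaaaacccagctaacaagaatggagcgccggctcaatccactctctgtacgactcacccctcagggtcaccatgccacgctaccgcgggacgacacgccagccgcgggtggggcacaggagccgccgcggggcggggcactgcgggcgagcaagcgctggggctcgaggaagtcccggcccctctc

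Myl10 and Sult1a1, both of the second kind, had few CpG dinucleotides in these windows. There were 3 in Myl10 and 0 in Sult1a1, against 30 in Rgs2, 20 in Rgs19 and a median of 6 over 32817 promoters of the same length. The GC content was 49.6% in Myl10 and 45.6% in Sult1a1, against 72.4% in Rgs2 and 64.8% in Rgs19, with a median of 52.4% over all promoters. The fifth match, Rgs10, had 27 CpG and a GC content of 76.4%, although Rgs10 was present in few cells. Its window lies inside the gene as GENCODE annotates it, and it is not printed. The CpG number thus did not follow presence in all 5 genes.

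The capitals in Rgs2 are matches to TGACG, the half-site of the cyclic AMP response element, 1 on each strand, and 17.7% of all promoters hold such a match. In Myl10 the first is a match to the ETS core CCGGAA, which 12% of promoters hold. The second is a match to AGATAA, the core bound by Gata factors, which 9.99% hold. Both are on the strand opposite to the gene and do not overlap. These are matches of letters and not known sites. TGANTCA (AP-1, in 6.75% of promoters) and TGTGGT (RUNX, in 14%) were also searched on both strands. No match to any of the 5 motifs was found in Rgs10, Rgs19 or Sult1a1.

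Rgs1, known from activated lymphocytes, was listed at 0 in all 56 FL HSC. A count of 0 among 56 cells allows a share of up to 5.36%. In WT-MPP it was present in all 41 cells, with a lowest value of 1.93 TPM, a median of 385 and a highest of 7751. In BM HSC the lowest value was 0.902 TPM, the median 17.1 and the highest 5153, with 35 of 36 cells at 1 TPM or more (97.2%, 85.5 to 99.9%). The CD11b+CD48+SK cells ran from 0 to 654 TPM with a median of 1.24, and 24 of 47 were present (51.1%, 36.1 to 65.9%). The ranges of FL HSC did not overlap those of WT-MPP or BM HSC, and Rgs1 was the only member with ranges apart in any comparison. The gap was narrow, from 0 to 0.902 TPM for BM HSC, of which 18 of 36 lay under 20 TPM. The share of all genes with ranges apart was not computed, so how unusual this is remains unknown.

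The adult values of Rgs1 fell into a low and a high part. In BM HSC 18 of 36 cells lay under 20 TPM, none of them at 0, while 14 cells lay at 100 TPM or more. In WT-MPP 11 cells lay under 20 TPM and 29 at 100 or more. In the CD11b+CD48+SK cells 31 lay under 20 TPM, 19 of these at 0, and 9 reached 100 TPM. At a limit of 20 TPM the share was 73.2% in WT-MPP (57.1 to 85.8%), 50% in BM HSC (32.9 to 67.1%), 34% in the CD11b+CD48+SK cells (20.9 to 49.3%) and 0% in FL HSC. The order of the populations was the same as at 1 TPM, but the intervals of neighbours overlapped, except between FL HSC and CD11b+CD48+SK cells. The mean was 65.7 TPM in CD11b+CD48+SK cells, 527 in BM HSC and 791 in WT-MPP, and the highest single cell gave 21.2%, 27.1% and 23.9% of these sums. Of the 10856 genes kept, 1.03% were listed at 0 in all FL HSC. An exact 0 can also be a failed estimate, since Gapdh was listed at 0 in 1 WT-MPP cell.

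Rgs2, known to act on the Gq class and to be induced early after stimulation, was most widely present in the CD11b+CD48+SK cells. Its lowest value there was 0.363 TPM, the median 126 and the highest 646. WT-MPP ran from 0 to 574 TPM with a median of 104, and BM HSC from 0 to 784 with a median of 25.8. FL HSC ran from 0 to 312 TPM with a median of 53.3. All 4 populations overlapped. The share of present cells was 71.4% (57.8 to 82.7%) in FL HSC, 72.2% (54.8 to 85.8%) in BM HSC, 78.0% (62.4 to 89.4%) in WT-MPP and 95.7% (85.5 to 99.5%) in CD11b+CD48+SK cells. The intervals of FL HSC, BM HSC and WT-MPP overlapped widely. That of the CD11b+CD48+SK cells also overlapped those of WT-MPP and, narrowly, BM HSC, but not that of FL HSC. At 20 TPM the share in CD11b+CD48+SK cells was 85.1% (71.7 to 93.8%). It was 67.9% in FL HSC, 55.6% in BM HSC and 58.5% in WT-MPP, with upper limits of 79.7%, 72.1% and 73.7%. At that limit the interval of the CD11b+CD48+SK cells thus overlapped every other. Cells at 100 TPM or more numbered 10 of 56 FL HSC, 11 of 36 BM HSC, 21 of 41 WT-MPP and 30 of 47 CD11b+CD48+SK cells.

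Rgs18, a regulator of the platelet and megakaryocyte lineage, was the highest Rgs gene by mean in every population. BM HSC ran from 6.77 to 4811 TPM with a median of 855. WT-MPP ran from 13.1 to 4507 with a median of 661, the CD11b+CD48+SK cells from 2.08 to 2652 with a median of 369, and FL HSC from 0 to 1046 with a median of 233. The medians fell in this order, and the cells of all populations overlapped. It was present in every cell but 2 FL HSC. By mean TPM it was the gene of rank 100 in BM HSC, 150 in WT-MPP, 428 in the CD11b+CD48+SK cells and 735 in FL HSC.

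The markers of megakaryocytes and platelets were summed beside Rgs18. The summed level of the 7 genes had a median of 232 TPM in BM HSC (0.689 to 1250), 3.52 in WT-MPP (0 to 1003), 2.23 in the CD11b+CD48+SK cells (0 to 428) and 172 in FL HSC (0 to 1910). WT-MPP had the second highest median of Rgs18 and a marker sum of 3.52 TPM in the median cell. Over the cells of each population, Spearman's rho of Rgs18 with this sum was -0.15 in FL HSC and 0.03 in BM HSC. It was -0.25 in WT-MPP and -0.22 in CD11b+CD48+SK cells. The part of this lineage in the levels of Rgs18 was not tested.

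Rgs10 and Rgs14, which share a subfamily and act mainly on Gi subunits, were found in few cells. Rgs10 was present in 17 of 47 CD11b+CD48+SK cells (36.2%, 22.7 to 51.5%), with a highest value of 362 TPM, and in 6 of 56 FL HSC (10.7%, 4.03 to 21.9%), with a highest value of 155. It was listed at 0 in all 41 WT-MPP and all 36 BM HSC, counts that allow shares of up to 7.32% and 8.33%. The intervals of FL HSC and CD11b+CD48+SK cells did not overlap at 1 TPM, but at 20 TPM the share in CD11b+CD48+SK cells was 29.8% (17.3 to 44.9%) and the intervals overlapped. Annotation places Rgs10 at chr7:128373621-128418758 (GRCm38, minus strand), where it shares 3374 bases with Gm15503 on the same strand, so reads of the shared stretch are uncertain.

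Rgs14 had overlapping intervals in all populations. It was present in 9 of 56 FL HSC (16.1%, 7.62 to 28.3%), in 7 of 36 BM HSC (19.4%, 8.19 to 36%), 8 of 41 WT-MPP (19.5%, 8.82 to 34.9%) and 10 of 47 CD11b+CD48+SK cells (21.3%, 10.7 to 35.7%). The median cell was at 0 in each, and the highest value lay between 168 TPM in the CD11b+CD48+SK cells and 394 in WT-MPP.

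Rgs19, also called GAIP, binds Gi class subunits and was present in nearly every cell. The CD11b+CD48+SK cells ran from 13.5 to 815 TPM with a median of 368. WT-MPP ran from 0.785 to 1775 with a median of 256, BM HSC from 0.740 to 1178 with a median of 201, and FL HSC from 0 to 582 with a median of 263. Populations differed here in the number of low cells. Under 20 TPM lay 1 CD11b+CD48+SK cell, 12 WT-MPP, 13 BM HSC and 4 FL HSC, and the lowest present FL HSC was at 33.3 TPM. At 20 TPM or more the share was 97.9% (88.7 to 99.9%) in the CD11b+CD48+SK cells and 92.9% (82.7 to 98.0%) in FL HSC. In WT-MPP it was 70.7% (54.5 to 83.9%) and in BM HSC 63.9% (46.2 to 79.2%). The SD over cells of log2(TPM+1) was 2.16 in FL HSC, 3.29 in BM HSC, 3.16 in WT-MPP and 1.26 in CD11b+CD48+SK cells.

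**Figure D1:**
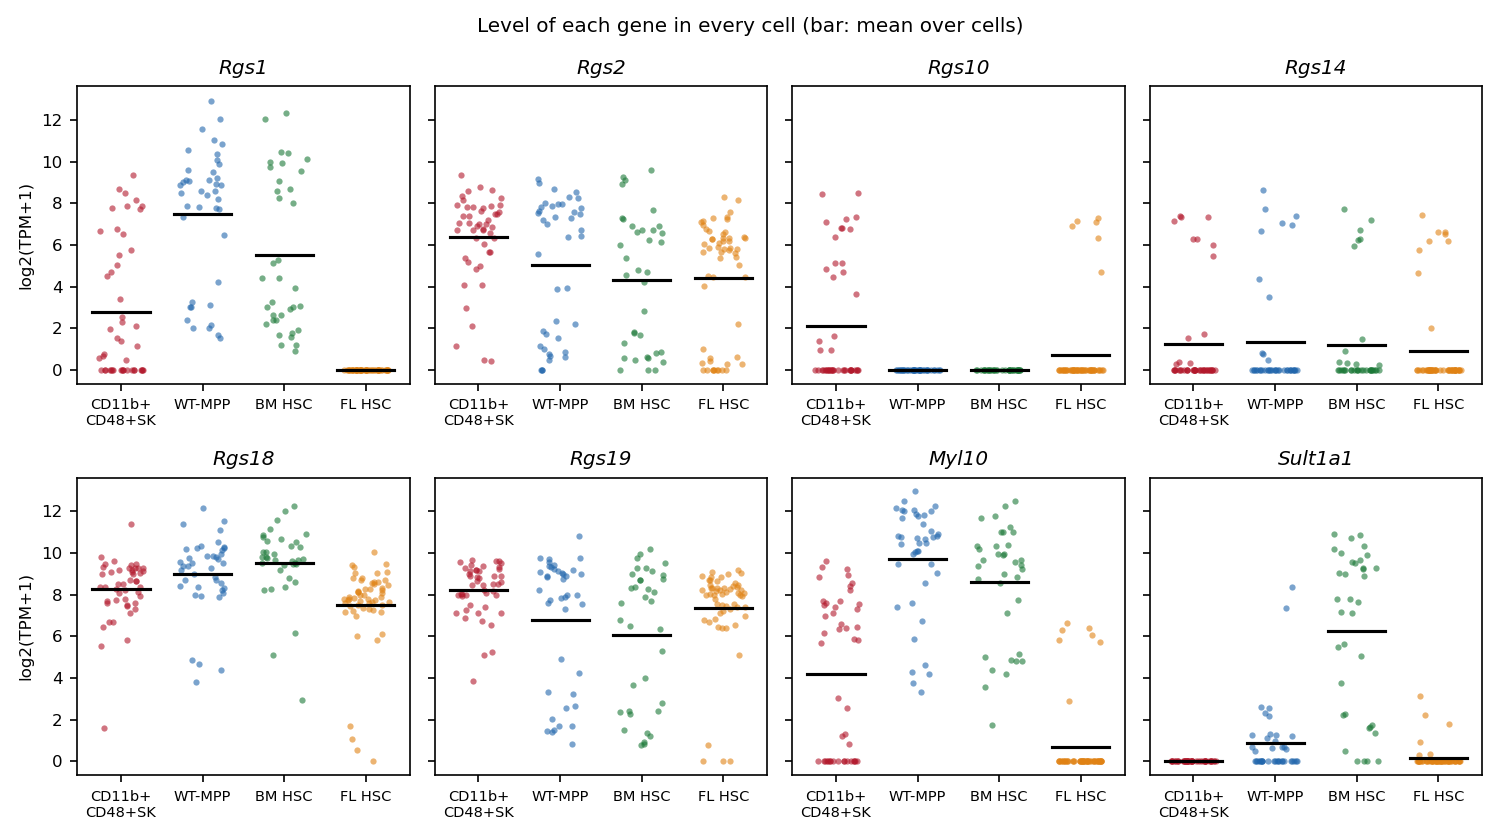
Each point is 1 cell, with log2(TPM+1) on the y axis and the 4 populations on the x axis, in 1 panel for each member, and the black bar is the mean over cells. Rgs1 is at 0 in all 56 FL HSC, Sult1a1 at 0 in all 47 CD11b+CD48+SK cells, and Rgs19 forms a lower group of points in WT-MPP and BM HSC.

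Myl10 was among the highest transcripts of the adult progenitors and near 0 in fetal liver. WT-MPP ran from 9.05 to 8048 TPM with a median of 1618, and BM HSC from 2.38 to 5759 with a median of 716. The CD11b+CD48+SK cells ran from 0 to 774 with a median of 55.8, and FL HSC from 0 to 97.7 with a median of 0. By mean TPM it held rank 41 in WT-MPP, 108 in BM HSC, 1463 in the CD11b+CD48+SK cells and 7581 in FL HSC. All adult cells were at 1 TPM or more, against 29 of 47 CD11b+CD48+SK cells (61.7%, 46.4 to 75.5%) and 7 of 56 FL HSC (12.5%, 5.18 to 24.1%). The intervals of the last 2 populations did not overlap each other or those of the adult cells, at 1 TPM or at 20 TPM. Cells overlapped between populations, and 4 WT-MPP and 4 BM HSC lay under 20 TPM.

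Sult1a1 was a transcript of the BM HSC. Its values there ran from 0 to 1904 TPM with a median of 213, and it was present in 31 of 36 cells (86.1%, 70.5 to 95.3%). In WT-MPP it was present in 11 of 41 cells (26.8%, 14.2 to 42.9%), but 2 of these cells reached 20 TPM, and the highest, at 330 TPM, gave 63.0% of the population's sum. In FL HSC 3 of 56 cells were present (5.36%, 1.12 to 14.9%), with a highest value of 7.77 TPM. All 47 CD11b+CD48+SK cells were listed at 0, a count that allows a share of up to 6.38%. Of the kept genes, 4.01% were listed at 0 in all CD11b+CD48+SK cells. Within BM HSC the gene was itself split, with 12 cells under 20 TPM and 21 at 100 or more.

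Annotation places Sult1a1 at chr7:126672865-126676432 (GRCm38, minus strand), where it shares 61 bases with Sgf29 on the other strand. Sgf29, listed as Ccdc101, was present in 37 of 47 CD11b+CD48+SK cells, in which Sult1a1 was listed at 0. Its presence was 32 of 36 in BM HSC, 26 of 41 in WT-MPP and 51 of 56 in FL HSC. Whether reads were counted by strand is not given in the sources used here, so reads of the shared bases cannot be told apart.

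**Figure D2:**
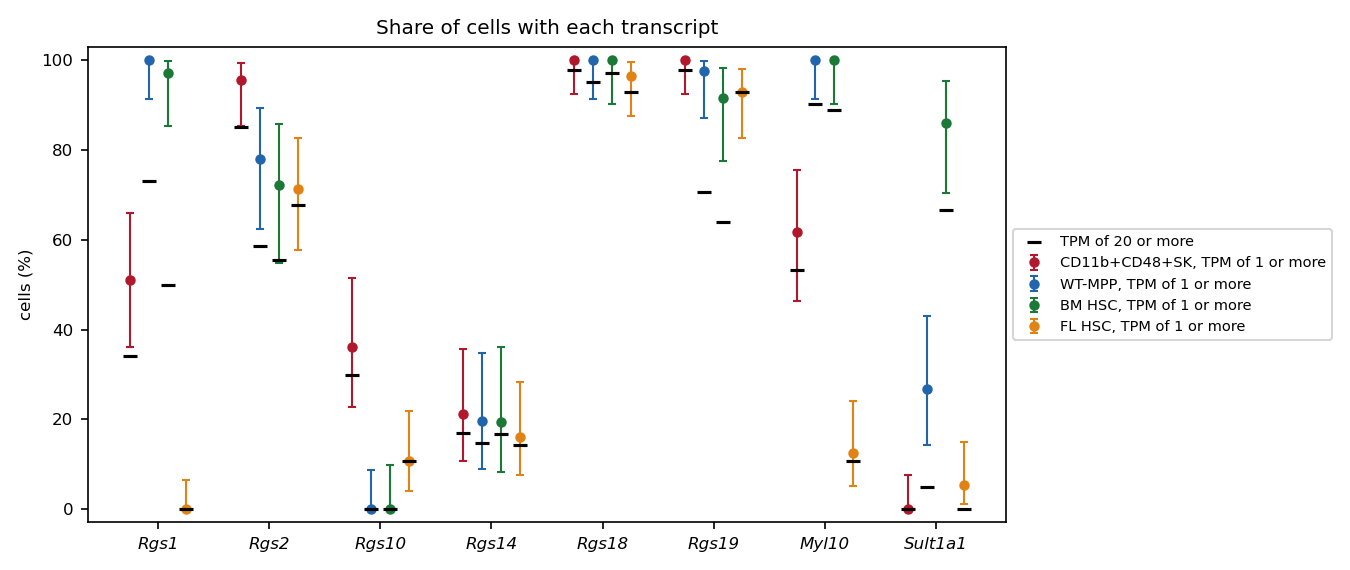
Circles give the percentage of cells at 1 TPM or more for each member (x axis) in the 4 populations (colours), with the 95% exact interval, and black dashes give the percentage at 20 TPM or more. Myl10 is at 100% in WT-MPP and BM HSC, 61.7% in the CD11b+CD48+SK cells and 12.5% in FL HSC, while Rgs14 lies between 16.1% and 21.3% in all 4.

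Differences were taken as means over cells of log2(TPM+1), and a difference of 1 or more was counted. FL HSC set against BM HSC gave 4 of the 8 members lower and 1 higher. Of all 10856 genes, 5.44% were lower and 25.6% higher by this rule, or 31% in either direction. The values were -7.87 for Myl10, the lowest of all genes, -6.10 for Sult1a1, -5.51 for Rgs1 and -2.04 for Rgs18. Rgs19 was higher by 1.26 on this scale, although the log2 of its mean TPM plus 1 gave -0.14, since the mean TPM was 253 in FL HSC and 280 in BM HSC. The median was -1.16 over the members and 0.31 over all genes.

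FL HSC set against WT-MPP gave 3 members lower and none higher, where 3.08% of all genes were lower, 33.9% higher and 37% either. The differences were -9.02 for Myl10, again the lowest of all genes, -7.47 for Rgs1, the second lowest, and -1.52 for Rgs18. The member median was -0.68, against 0.56 over all genes. Values against a population at or near 0 depend on the pseudocount, and that of Rgs1 was -10.72 with a pseudocount of 0.1 and -4.54 with 10. By the log2 of the mean TPM plus 1, the count of members differing by 1 or more was 7, where 32.6% of all genes did so. FL HSC set against the CD11b+CD48+SK cells gave 4 members lower and none higher, with a background of 4.02% lower, 20.9% higher and 25% either. These were Myl10 at -3.47, Rgs1 at -2.77, Rgs2 at -1.98 and Rgs10 at -1.39, and the medians were -1.13 over the members and 0.32 over all genes.

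WT-MPP set against BM HSC gave 3 of 8 members that differed by 1 or more in either direction, against 17.2% of all genes. Rgs1 was higher by 1.96 and Myl10 by 1.15, while Sult1a1 was at -5.37, the lowest of all genes. With the log2 of the mean TPM plus 1, Sult1a1 alone differed by 1 or more, against 27.4% of all genes. The medians were 0.41 over the members and -0.22 over all genes.

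The CD11b+CD48+SK cells differed from both adult populations in both directions. Set against WT-MPP they had Myl10 at -5.56 and Rgs1 at -4.70, while Rgs10 at 2.09, Rgs19 at 1.43 and Rgs2 at 1.35 were higher, with 19% of all genes higher, 5.01% lower and 24% either. Set against BM HSC they had 4 members lower, Sult1a1 at -6.26, Myl10 at -4.41, Rgs1 at -2.74 and Rgs18 at -1.28. The 3 higher members were Rgs19 at 2.14, Rgs10 at 2.09 and Rgs2 at 2.07. The background was 13.4% higher, 11.8% lower and 25.2% either. Member medians were -0.43 and -0.64, and those of all genes 0.21 and -0.001. These comparisons share populations, so they are not separate evidence. The higher calls depend on the averaging. Against BM HSC the log2 of the mean TPM plus 1 gave 0.47 for Rgs2 and 0.47 for Rgs19, and medians over cells gave 0.87 for Rgs19 and 0 for Rgs10. Against WT-MPP the mean TPM gave 0.15 for Rgs2 and 0.09 for Rgs19, and medians gave 0.27 for Rgs2, 0.52 for Rgs19 and 0 for Rgs10, so that 5 members became 2 with medians, against 21.9% of all genes.

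**Figure D3:**
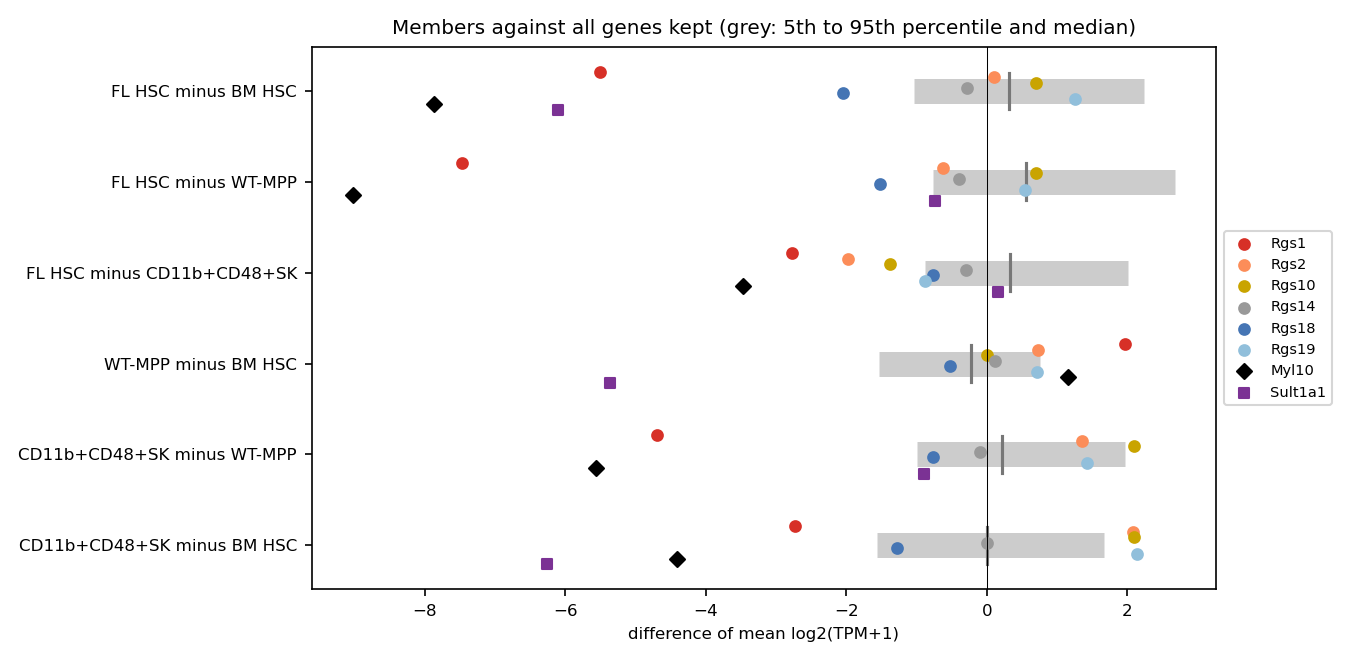
The x axis is the difference of mean log2(TPM+1) in each of 6 comparisons (y axis), with members as coloured symbols and grey bars from the 5th to the 95th percentile of the 10856 genes, a dark tick marking their median. Myl10 and Rgs1 lie left of the grey bar in the comparisons of FL HSC and of CD11b+CD48+SK cells with other populations, and Sult1a1 lies far left in the 3 comparisons with BM HSC.

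The levels of all 11 Rgs genes listed were summed in each cell. Of 16 other Rgs names searched, 6 were found, among them Rgs7bp, which is not in the sum. The listed genes are thus not the whole family. The members were chosen with earlier results of these data known, so their share of the sum is a description. The 6 Rgs members gave 97.9% of the sum in FL HSC, 99.2% in BM HSC, 99.7% in WT-MPP and 99.4% in CD11b+CD48+SK cells. In FL HSC the sum had a median of 564 TPM (231 to 1740), in BM HSC 1753 (118 to 7111), in WT-MPP 1644 (217 to 7790) and in CD11b+CD48+SK cells 996 (427 to 3281). Ranges overlapped, and the adult medians were the highest.

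The make-up of the sum differed as well. Rgs18 gave 44.2% in FL HSC, 55.2% in BM HSC, 39.7% in WT-MPP and 39.3% in CD11b+CD48+SK cells. Rgs19 gave 40.1%, 13.2%, 16.5% and 35.2% in the same order. Rgs1 gave 0%, 24.8%, 36% and 5.97%, and Rgs2 gave 9.83%, 5.16%, 6.21% and 13.8%. By cell, Rgs19 was the highest Rgs gene in 20 of 47 CD11b+CD48+SK cells and 24 of 56 FL HSC, but in 9 of 41 WT-MPP and 3 of 36 BM HSC. Rgs1 was the highest in 2 CD11b+CD48+SK cells, 13 WT-MPP, 8 BM HSC and no FL HSC.

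**Figure D4:**
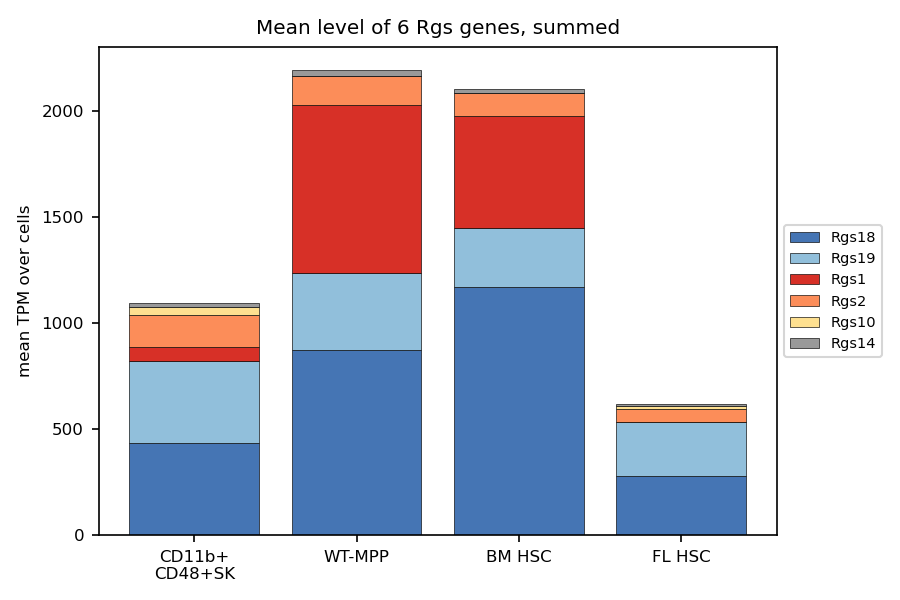
Stacked bars give the mean TPM over cells of the 6 Rgs members in each population (x axis), starting from 0. Rgs1 makes up a large part of the WT-MPP and BM HSC bars, a small part in the CD11b+CD48+SK cells and none in FL HSC.

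Rgs2, Rgs1 and Rgs18 stand in 1 cluster of the genome. In GRCm38 (GENCODE M21) Rgs2 spans chr1:143999338-144004161, Rgs1 chr1:144242296-144249242 and Rgs18 chr1:144752683-144775435, all on the minus strand. Rgs13 and Rgs21 lie between them, and these 5 are the only protein-coding genes in the 776098 bases. Rgs13 and Rgs21 were not found among the 14825 genes listed. The 3 neighbours did not share a pattern over the populations, with Rgs1 highest in WT-MPP, Rgs2 in the CD11b+CD48+SK cells and Rgs18 in BM HSC. The other members lie elsewhere, Rgs14 at chr13:55369732-55384687 on the plus strand, Rgs19 at chr2:181688419-181693977 on the minus strand and Myl10 at chr5:136693146-136701094 on the plus strand.

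Correlations between members from cell to cell were weak. Spearman's rho was computed for each pair within each population, which gave 84 values between -0.35 and 0.36 with a median of 0.008, and 7 exceeded 0.3 in size. The points of a population are single libraries of unknown depth, with no animal or plate named, and the values are a description. Myl10 and Rgs1, which both separated the populations, had a rho of -0.005 in BM HSC, -0.265 in WT-MPP and 0.317 in CD11b+CD48+SK cells. Among cells that held both genes of a pair, 50 values could be computed over at least 10 cells. They lay between -0.31 and 0.5 with a median of 0.07, and 6 exceeded 0.3 in size. The highest was that of Rgs2 and Myl10 in 27 CD11b+CD48+SK cells, and in 32 WT-MPP the same pair had 0.478 and Rgs2 and Rgs19 had 0.403. For Myl10 and Rgs1, 16 of 47 CD11b+CD48+SK cells held both, where independent presence gives 14.8, and 10 cells had neither.

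**Figure D5:**
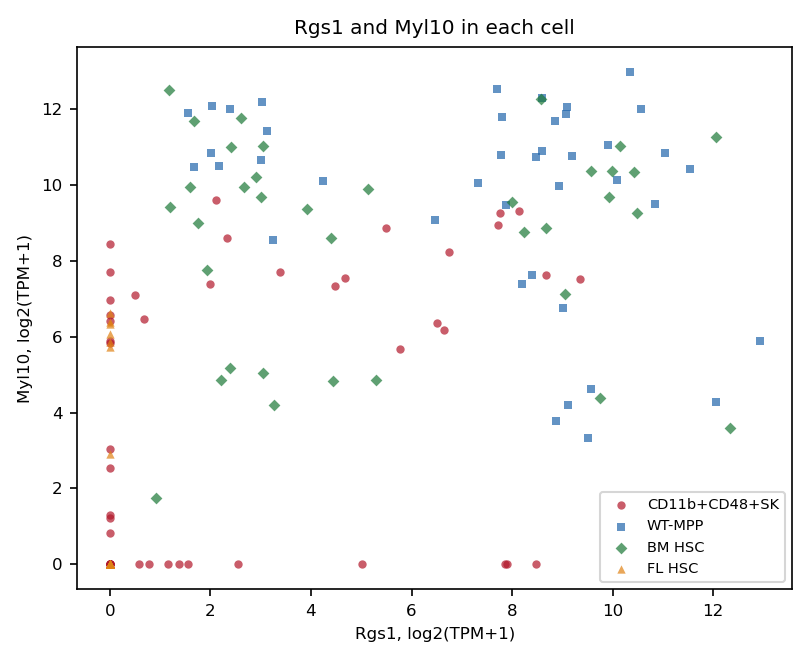
Each point is 1 cell, with log2(TPM+1) of Rgs1 on the x axis and of Myl10 on the y axis, and symbols mark the 4 populations. WT-MPP and BM HSC spread over the upper part without a line within either, FL HSC lie at 0 for Rgs1, and the CD11b+CD48+SK cells lie between, with 10 cells holding neither transcript at 1 TPM.

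The genes most like each member were sought among 6529 genes by the mean of the within-population rho. This could be done for 5 members that reached a share of 20% in at least 3 populations. For Rgs2 they were Ypel3 (0.321), Pik3ip1, Itm2b, Lyz2 and Smpdl3a (0.290). For Myl10 they were Kdsr (0.312), Sfpi1, Ctss, Acap1 and Tbc1d17 (0.264). For Rgs19 they were Sdr39u1 (0.297), Psap, Serp1, Fam136a and Aff4 (0.252). For Rgs18 they were Tmsb4x (0.247), Polr3gl, Phf21a, Gngt2 and Calm2 (0.224). For Rgs1, over the 3 populations in which it varied, they were Zfp52 (0.349), Snapc3, Abca2, 3110009E18Rik and Txndc12 (0.312). All are weak, the highest of 6529 values each, and not findings about these genes.

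The partners of the Rgs proteins were counted from lists of their pathway. Over all genes the share that differed by 1 or more was 25.2% for CD11b+CD48+SK cells set against BM HSC and 24% when set against WT-MPP. For FL HSC it was 31% against BM HSC and 37% against WT-MPP. Of 11 G alpha subunits kept, CD11b+CD48+SK cells had 1 higher and 2 lower by 1 or more relative to BM HSC, with a median of -0.28, a count near the share over all genes. The higher one was Gna14, of the Gq class, present in 20 of 47 CD11b+CD48+SK cells, in no WT-MPP or BM HSC and in 1 FL HSC. The lower ones were Gnai3 (mean log2 level 3.77 against 5.21), a Gi subunit, and Gna12 (0.31 against 1.54). Gnai2, the main Gi subunit of blood cells, was present in 55 of 56 FL HSC, 34 of 36 BM HSC, 38 of 41 WT-MPP and 46 of 47 CD11b+CD48+SK cells. FL HSC differed from BM HSC by 1 higher and 2 lower G alpha subunits and from WT-MPP by 1 higher, and WT-MPP from BM HSC by 1 lower.

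Of 9 G beta and gamma subunits kept, CD11b+CD48+SK cells had 5 higher and 2 lower than in BM HSC (median 1.0), and 3 higher and 1 lower than in WT-MPP (median 0.80). Gnb4 had a mean log2 level of 2.71 in FL HSC, 1.36 in BM HSC, 2.50 in WT-MPP and 5.61 in CD11b+CD48+SK cells, and Gng10 of 7.48, 6.41, 6.38 and 9.08. Gng11 went the other way, with 7.57, 8.01, 5.81 and 2.86. In FL HSC 3 of the 9 were higher and 1 lower than in BM HSC.

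Of 12 G protein-coupled receptors kept, CD11b+CD48+SK cells had 7 lower and 3 higher relative to BM HSC (median -1.23), and 2 lower and 2 higher relative to WT-MPP (median -0.51). In FL HSC 5 were lower than in BM HSC and none higher, and 3 lower than in WT-MPP and none higher. P2ry14, a receptor for UDP-glucose, had a mean log2 level of 1.34 in FL HSC, 1.75 in BM HSC, 3.30 in WT-MPP and 6.50 in CD11b+CD48+SK cells. Ptger4, a receptor for prostaglandin E, had 0.35, 3.49, 1.52 and 0.68 in the same order, and F2r, the thrombin receptor, 0.99, 3.06, 1.26 and 0.66. Cxcr4 was present in 17 of 56 FL HSC, 8 of 36 BM HSC, 9 of 41 WT-MPP and 19 of 47 CD11b+CD48+SK cells.

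Other regulators of receptors and G proteins, such as arrestins and receptor kinases, had 3 of 8 higher and none lower when CD11b+CD48+SK cells were set against either adult population. They were Gpsm1, Arrb2 and Grk2, listed as Adrbk1, of which Grk2 had a mean log2 level of 3.86 in FL HSC, 2.32 in BM HSC, 2.74 in WT-MPP and 4.34 in CD11b+CD48+SK cells. Of the Rgs genes that are not members, 3 passed the filter by name, among them Rgs7bp, which binds Rgs proteins and is not one. None of the 3 differed by 1 or more between BM HSC and any other population. Relative to WT-MPP, FL HSC were at 1.14 for Rgs3 and -1.24 for Rgs7bp, and CD11b+CD48+SK cells at -1.18 for Rgs7bp. Rgs3, present in 20 of 56 FL HSC and 10 of 47 CD11b+CD48+SK cells, had a mean TPM of at most 9.49.

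Other myosin genes did not follow Myl10. Of 11 chains and regulators of myosin II kept, none differed by 1 or more in FL HSC from WT-MPP or from the CD11b+CD48+SK cells. Of all genes, 37% and 25% did so. Relative to BM HSC 1 of the 11, Mylk, was lower in FL HSC, where 5.44% of all genes were lower. Myl4 and Mylpf had mean log2 levels of at most 0.76 in every population, so they could not fall by 1. Mylk, the light chain kinase, had a mean log2 level of 2.13 in BM HSC, 0.40 in WT-MPP, 0.30 in the CD11b+CD48+SK cells and 0.40 in FL HSC. The light chain genes Myl6 and Myl12b were present in all 180 cells. Myl6 had a mean TPM of 1232 in FL HSC, 1514 in BM HSC, 1779 in WT-MPP and 1515 in CD11b+CD48+SK cells, so that Myl10 exceeded it by mean TPM in WT-MPP alone. By mean log2 level Myl6, at 10.52 in WT-MPP, stood above Myl10, at 9.74, there too.

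Other sulfotransferases and enzymes of the sulfate donor did not follow Sult1a1. Of 5 genes kept, none differed by 1 or more in any comparison, where 17.2% to 37% of all genes did so. All but Papss1 had a mean log2 level of at most 1.66 in every population, which leaves little room for a fall of 1. Papss1, which makes PAPS, was present in 30 of 56 FL HSC, 20 of 36 BM HSC, 16 of 41 WT-MPP and 22 of 47 CD11b+CD48+SK cells. Sult5a1, the only other sulfotransferase kept, was present in 1 BM HSC and 6 FL HSC.

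Other features of the cells moved with the populations, and their part in the levels of the members was not tested. Of 18 replication genes, 17 were higher by 1 or more in FL HSC relative to WT-MPP, against 33.9% of all genes. In CD11b+CD48+SK cells relative to WT-MPP 17 were higher, against 19% of all genes. Immediate early genes respond within minutes to stimulation and to cell handling. Of 16 kept, 13 were lower in FL HSC relative to BM HSC, against 5.44% of all genes. In CD11b+CD48+SK cells relative to BM HSC 14 were lower, against 11.8% of all genes. Within populations Rgs2, itself known as an early response gene, had a rho with the summed replication genes of -0.23 in FL HSC, -0.14 in BM HSC, 0.36 in WT-MPP and -0.47 in CD11b+CD48+SK cells. With the summed immediate early genes its rho was 0.13, 0.07 and 0.29 in FL HSC, WT-MPP and CD11b+CD48+SK cells, and 0.30 in BM HSC.

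The sort was checked against markers. Cd48 was present in 10 of 56 FL HSC, 1 of 36 BM HSC, 7 of 41 WT-MPP and all 47 CD11b+CD48+SK cells. Itgam, the gene of CD11b, was found in 9 of 56 FL HSC and 17 of 47 CD11b+CD48+SK cells, the populations sorted on that protein, and in 2 WT-MPP and 1 BM HSC. Slamf1, which encodes CD150, was present in 23 BM HSC, 31 FL HSC, 3 WT-MPP and 3 CD11b+CD48+SK cells. Kit, the gene of c-kit, had its lowest mean log2 level in CD11b+CD48+SK cells, 3.34, although they were sorted as c-kit+, and was present in 33 of 47. The level was 4.86 in FL HSC, 5.88 in BM HSC and 4.93 in WT-MPP. Flt3, which encodes CD135, was present in 30 of 56 FL HSC, 9 of 36 BM HSC, 31 of 41 WT-MPP and 41 of 47 CD11b+CD48+SK cells. Ly6a, which encodes Sca1, was present in 51, 36, 40 and 43 cells in that order. The summed adult HSC markers had a median of 1215 TPM in BM HSC, 667 in WT-MPP, 711 in FL HSC and 1.60 in CD11b+CD48+SK cells. Erythroid markers had a median sum of 3353 TPM in FL HSC (127 to 16356), against 42.1 in BM HSC, 0.497 in WT-MPP and 0.605 in CD11b+CD48+SK cells. The beta-globin genes Hbb-b1, Hbb-b2 and Beta-s had mean TPM of 1426, 1805 and 1241 in FL HSC. The alpha-globin genes of the list did not follow them. Hba-a2 had a mean TPM of 17.4 in FL HSC, 15.3 in BM HSC, 5.71 in WT-MPP and 27.4 in CD11b+CD48+SK cells. Hba-a1 had 1.38 in FL HSC and 5.59 in WT-MPP. Epor was present in 23 of 56 FL HSC and 7 of 36 BM HSC, Gata1 in 4 and 3, and Klf1 in 2 and 1. Mast and basophil markers had a median sum of 144 in CD11b+CD48+SK cells (0 to 9248 TPM) and 0 in the other populations. Cpa3 had a mean of 742 TPM in CD11b+CD48+SK cells and Mcpt8 of 85.7, while Ms4a2 was present in 5 of 47. Gzmb went the other way, present in 1 of 47 CD11b+CD48+SK cells and 6 of 36 BM HSC. The myeloid sums had medians from 1252 to 1732 TPM, and the T-cell sums had a median of 0 everywhere. Lyz2 alone had mean TPM from 1106 in BM HSC to 1323 in FL HSC, so the myeloid sums say little about the other genes. Mpo had a mean log2 level of 1.34 in FL HSC, 0.48 in BM HSC, 0.73 in WT-MPP and 6.22 in CD11b+CD48+SK cells. Prtn3 was lowest in CD11b+CD48+SK cells, at a mean log2 level of 6.67 against 7.43 to 8.56 elsewhere. S100a8 was present in 5 of 47 CD11b+CD48+SK cells and in no other population.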

How the data were processed

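Single cells of 4 populations were sequenced, each as 1 library. The deposited values are TPM that the authors made with HISAT2 2.1.0 for alignment to mm10 and StringTie 1.3.4 for quantification, and the submitters' processing notes also name SAMtools 0.1.19 and bcl2fastq. The annotation is not given in the sources used here. Every cell sums to 1000000 TPM over the 14825 listed genes, so levels are relative and the read depth is unknown. The table has 181 columns of cells. Of these, 1 was left out, because its name, of the WT-MPP form, matches no labelled sample. No cells were filtered out.

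The level of a gene in a population was the mean of log2(TPM+1) over its cells. The filter kept 10856 genes with 10% or more of the cells of any population at 1 TPM or above. As no animal is named, no test was made and no p-value computed. The members and gene lists were chosen with earlier results of these data known. The genes named are all members, the genes of largest difference in each list (up to 4 per comparison), and the 5 genes most like each member, plus genes that show a list's level, which were chosen after their values were seen. A share of 0 was given the limit of 3 cells of the total. Python 3.11.15, numpy 2.4.6, pandas 2.3.3, scipy 1.17.1 and matplotlib 3.10.9 were used, and the code was tested on simulated data. Promoter sequences are from RefSeq and gene positions from GENCODE M21. Alternatives covered the pseudocount, the averaging, the scaling of cells, the filter, cells with few genes and the limit for presence.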

Additional observations from a re-analysis of the deposited data

How the results depend on the processing

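No difference of 1 or more changed sign under the alternatives tried, except that of Rgs19 in FL HSC against BM HSC, which was 1.26 and became -0.14 when the log2 of the mean TPM plus 1 was compared. The number of members differing by 1 or more between FL HSC and WT-MPP rose from 3 to 5 with a pseudocount of 0.1 and to 7 with the log2 of the mean TPM plus 1, while the share of all genes went from 37% to 52.8% and 32.6%. For BM HSC against WT-MPP it fell from 3 to 1 with the log2 of the mean TPM plus 1, where the share of all genes was 27.4%. Between WT-MPP and CD11b+CD48+SK cells it fell from 5 to 3 with a pseudocount of 10 and to 2 with medians over cells, with shares of 8.53% and 21.9% against 24% before. The cause was not tested. The other 37 of 42 such counts stayed within 1.5 times. Scaling the cells by the median ratio, leaving out the 8 cells under 3000 genes, and dropping the filter left every count of members within that limit. The limit for presence moved 28 of 96 shares beyond their interval, 12 of them at 20 TPM, an alternative chosen after the data were seen.

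No paired analysis was possible because the cell numbers are only names and no test was made. Read depth is unknown, how many animals gave the cells is not given in the sources used here, and the intervals cover the counting of cells only.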
